A study of Mus musculus with 6 samples.

Results

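Astrocyte genes were followed in a mouse glioblastoma stem cell line after knockdown of Ggct, the gene of gamma-glutamylcyclotransferase, an enzyme that acts on products of glutathione. The group holds 30 genes of the 22907 named on the array, set as a list of astrocyte markers and found through the transcript named for each probe, which gave 46 of 56593 probes. The knockdown group was 3 arrays of cells transduced with a lentiviral hairpin against Ggct, and the control group was 3 arrays of the same line transduced with a lentiviral non-target hairpin. All cells came from transposon-induced mouse glioblastoma and grew as neurospheres, floating spheres of undifferentiated cells, in serum-free medium with B27, N2, EGF and bFGF. The titles name a single hairpin and a single line, so off-target effects of the hairpin are not separated from loss of Ggct, and the labels do not say whether the line is a clone. Knockdown and control arrays share 3 dates in their titles, which makes 3 pairs. Beyond those dates the labels do not say that samples of a group were separate cultures, so the p-values reflect array-to-array spread, which may be technical.

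Astrocytes take up glutamate released by neurons, turn it into glutamine, buffer water and ions through channels and pumps, couple to each other through connexins and secrete lipoproteins, matrix proteins and peptide precursors. Neural stem cells and glioma stem cells share some of these genes, while others appear as astrocytes mature. Signals through the JAK-STAT and BMP pathways are known to switch on astrocyte genes in neural precursors, and Gfap is a textbook target of STAT3. A level below is the log2 signal of a probe less the 75th percentile of its array, so that 0 stands for that percentile. Levels of different genes cannot be set against each other, since probes differ in brightness. In a bulk sample a change in the number of cells that express a gene and a change in RNA per cell cannot be told apart.

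Ggct, the targeted gene, was checked first. Its level was 0.22, 0.91 and 0.70 on knockdown arrays 1, 2 and 3, against 3.32, 3.72 and 3.70 on control arrays, or 12.7% of control (log2 fold change -2.97 ± 0.20, SE; adjusted p = 0.00314 in limma). At an adjusted p below 0.05 in limma, 7.41% of the 14151 genes measured were called, 4.57% as higher and 2.84% as lower in the knockdown. On each array 54.5% to 56.8% of probes were well above background. The 2 arrays with the highest 75th percentile of raw signal, knockdown 1 (1201.2 intensity units) and control 3 (1373.3), belong to different groups, while the other 4 lay between 811.7 and 917.3. The deviations of these 2 arrays from their own group means correlated at 0.41 across genes, which are not independent replicates. Those of knockdown 2 and control 2 correlated at 0.55. Deviations within a group of 3 arrays sum to 0, so such correlations depend on each other. Several astrocyte genes below were high or low on both knockdown 1 and control 3.

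The cells expressed a part of the astrocyte list. A gene was counted by its best probe in a group, the one that the extraction software marked as well above background on most arrays. Different probes of a gene were not pooled across arrays. In knockdown cells 20 of the 30 genes were detected on all 3 arrays, and in control cells 19 were, with 4 more on some control arrays and 7 on none. The 7 genes above background on none of the 6 arrays were Slc1a2 (the glutamate transporter GLT-1 of mature astrocytes), Mlc1 (a membrane protein of astrocyte endfeet), Slc4a4 (a sodium bicarbonate cotransporter), Gjb6 and Gjb2 (connexin genes), Slc7a10 (a transporter of small neutral amino acids) and Ntsr2 (a neurotensin receptor). Their 9 probes reached a level of at most -6.68, whereas the lowest signal well above background lay between -5.62 and -5.05 depending on the array. Aqp4, the water channel of endfeet, and Gpc5, a surface proteoglycan, were each above background on 1 knockdown array and 1 control array. For both genes these were knockdown 1 and control 3. Against the name of the list, several defining genes of mature astrocytes, Slc1a2, Mlc1 and Gjb6 among them, were thus not detected in either group. Slc1a2, Mlc1, Gjb2, Slc7a10 and Ntsr2 had 1 probe each. For Atp1b2, 1 probe was above background on no array and the other on all 3 arrays of each group. Whether the probes of undetected genes can detect their RNA was not tested.

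**Figure D1:**
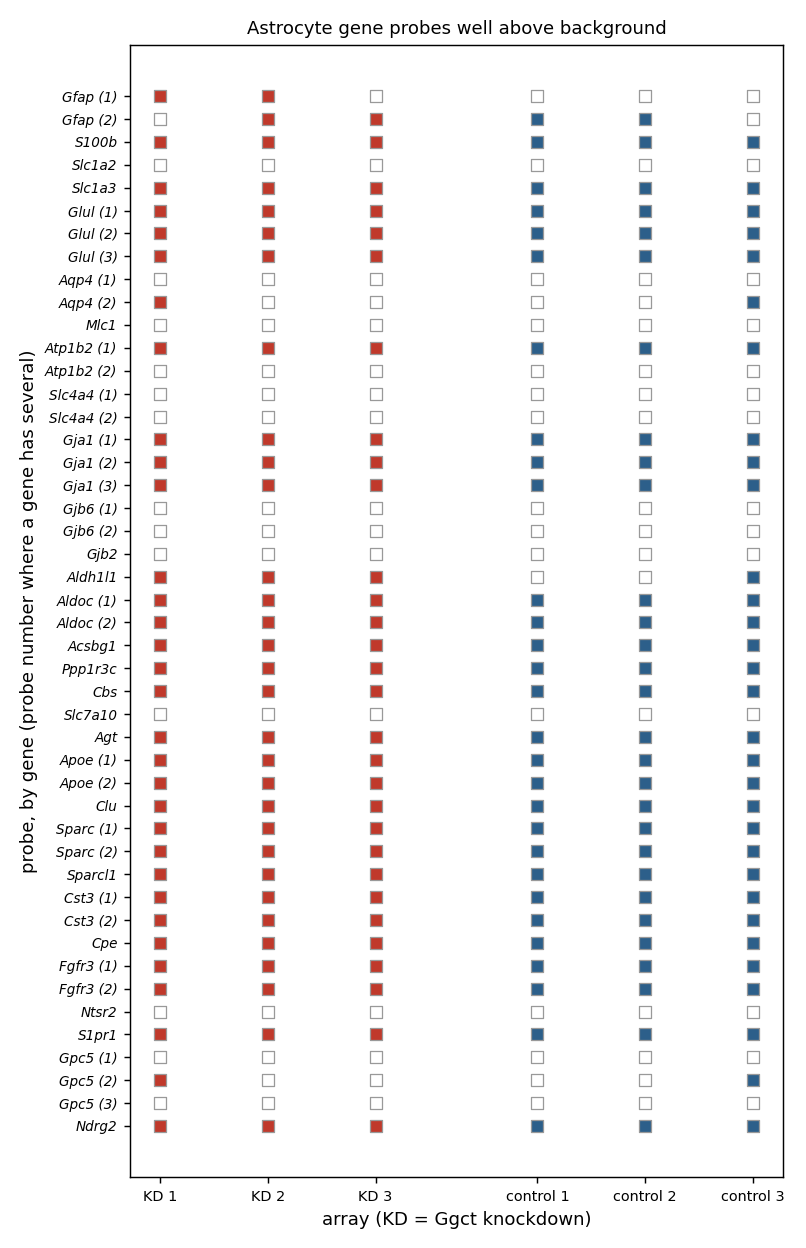
Each square is 1 probe (row) on 1 array (column), filled where the probe was well above background. Knockdown arrays stand left of control arrays, and the open rows include the 9 probes of the 7 genes detected on none of the 6 arrays.

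Among the 21 genes that could be tested, 7 rose in the knockdown, 0 fell and 14 did not pass. The 7 were Agt, Cbs, Clu, S100b, Slc1a3, Sparcl1 and Ndrg2, and 4 of them changed at least 2-fold. The members that rose were 33.3% of those tested, beside 4.57% of all genes higher and 7.41% called in either direction, and this describes a list chosen with results known. The other 9 members were above background on fewer than 3 arrays with every probe. The median log2 fold change of the 21 was 0.50, against 0.02 for all genes. In pairs 1, 2 and 3 the members' medians were 0.66, 0.33 and 0.54, where all genes had medians of 0.09, 0.00 and -0.03.

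**Figure D2:**
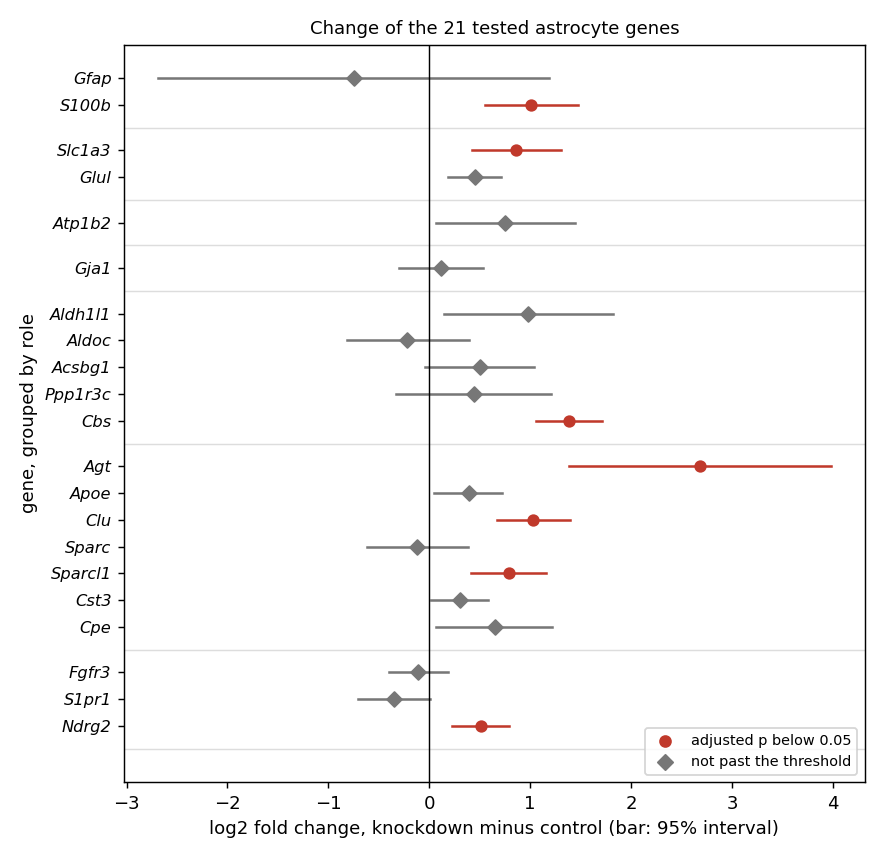
Log2 fold change, knockdown minus control, of the 21 tested genes (rows, grouped by role), with the 95% interval of the limma fit as a bar. Circles mark the 7 genes past the threshold, from 0.51 for Ndrg2 to 2.68 for Agt, and diamonds the 14 that did not pass.

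Of 7 tested genes for secreted proteins and their processing, 3 rose and 0 fell. Agt, the angiotensin precursor that astrocytes supply in brain, stood at 0.06, -1.85 and -2.19 on knockdown arrays 1, 2 and 3, against -3.67, -3.78 and -4.58 on control arrays. Every knockdown array lay above every control array, and knockdown 1 lay above the other 2. The log2 fold change of Agt was 2.68 ± 0.56 (SE; 95% interval 1.38 to 3.98; adjusted p = 0.0340 in limma), which is 6.41-fold. The fold was 3.97 without knockdown replicate 1 (adjusted p = 0.0126 in limma), and 3.26 without knockdown 1 and control 3 together (adjusted p = 0.00402 in limma). The latter setting was chosen after the data were seen and leaves 2 arrays a group. It drops the highest knockdown and the lowest control level of Agt. Agt did not pass without knockdown replicate 3 (limma adjusted p = 0.0628) or without control replicate 1, 2 or 3 (limma adjusted p = 0.101, 0.0981 and 0.0903). Agt passed in 11 of 18 alternative settings. With normexp background correction Agt was 2.89-fold higher.

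Clu encodes clusterin, an extracellular chaperone that astrocytes package with lipids. It stood at 6.44, 5.93 and 6.09 on knockdown arrays, against 5.20, 5.12 and 5.05 on control arrays, and was 2.04-fold higher (log2 fold change 1.03 ± 0.15, SE; adjusted p = 0.0149 in limma). The groups did not overlap, and the pairs differed by 1.24, 0.81 and 1.04. Sparcl1, or hevin, a secreted protein that promotes synapse formation, stood at 4.25, 3.80 and 4.15 on knockdown arrays, against 3.45, 3.30 and 3.10 on control arrays. Its groups did not overlap either, and it was 1.72-fold higher (log2 fold change 0.79 ± 0.16, SE; adjusted p = 0.0334 in limma, and 0.0607 with pairs blocked).

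The remaining 4 genes of this role did not pass. Apoe, the main lipid carrier of brain, had a log2 fold change of 0.39 ± 0.14 (SE; adjusted p = 0.146 in limma), with 0.51, 0.16 and 0.06 on knockdown arrays, against -0.15, -0.17 and -0.13 on control arrays, and its second probe gave 0.64 ± 0.19 (SE). Both Apoe probes had every knockdown array above every control array. Cpe, a carboxypeptidase that processes peptide precursors, had 0.65 ± 0.25 (SE; adjusted p = 0.157 in limma), and Cst3, the protease inhibitor cystatin C, had 0.30 ± 0.12 (SE; adjusted p = 0.175 in limma). A second Cst3 probe gave 0.09 ± 0.18 (SE), and its groups overlapped.

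Sparc, a matrix protein that binds collagen, was measured by 2 probes that differed. The brighter stood at 8.31, 8.94 and 8.80 on knockdown arrays, against 8.92, 9.04 and 8.46 on control arrays, with overlapping groups (log2 fold change -0.12 ± 0.21, SE; adjusted p = 0.785 in limma). The dimmer stood at 6.69, 7.32 and 6.98 on knockdown arrays, against 7.91, 7.96 and 7.73 on control arrays, with every knockdown array below every control array. That probe had a log2 fold change of -0.87 ± 0.19 (SE) in a fit over all 31804 kept probes, where its limma adjusted p was 0.0681 and 1.16% of probes passed as higher and 0.591% as lower. Which transcripts each Sparc probe reads was not tested.

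Among enzymes and amino acid transport, 1 of 5 tested genes rose and 0 fell. Cbs, cystathionine beta-synthase, which joins homocysteine and serine on the way to cysteine, stood at 1.61, 1.20 and 1.52 on knockdown arrays, against 0.08, 0.02 and 0.08 on control arrays. The control arrays lay close together, and every knockdown array lay above them. Cbs was 2.61-fold higher (log2 fold change 1.38 ± 0.14, SE; 95% interval 1.06 to 1.71; adjusted p = 0.00768 in limma). Its fold change passed in 15 of 18 alternative settings and lay between 1.28 and 1.51 on the log2 scale in all 18.

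Aldh1l1, a folate enzyme and general astrocyte marker, was well above background on 3 knockdown arrays and 1 control array. It stood at -5.18, -4.86 and -3.74 on knockdown arrays, against -5.65, -5.86 and -5.22 on control arrays (log2 fold change 0.98 ± 0.36, SE; adjusted p = 0.142 in limma). The groups did not overlap, but the values of control arrays 1 and 2 were not well above background, and the gene entered the test through the knockdown arrays. With normexp Aldh1l1 was 1.11-fold higher (log2 fold change 0.15), against 1.97-fold in the fit above. Acsbg1, an acyl-CoA synthetase, had 0.50 ± 0.23 (SE; adjusted p = 0.236 in limma) and Ppp1r3c, a glycogen-targeting phosphatase subunit, 0.44 ± 0.33 (SE; adjusted p = 0.460 in limma). Aldoc, the brain aldolase of glycolysis, had -0.22 ± 0.26 (SE; adjusted p = 0.664 in limma), and a second Aldoc probe had -0.28 ± 0.25 (SE).

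Of the 2 tested genes of glutamate handling, 1 rose and 0 fell. Slc1a3, the glutamate transporter GLAST, which radial glia and astrocytes share, stood at -1.59, -1.30 and -1.13 on knockdown arrays, against -2.35, -1.85 and -2.40 on control arrays. The groups did not overlap, and Slc1a3 was 1.82-fold higher (log2 fold change 0.86 ± 0.19, SE; adjusted p = 0.0399 in limma, and 0.0652 with pairs blocked). Glul, glutamine synthetase, had 1.85, 1.74 and 1.93 on knockdown arrays, against 1.37, 1.43 and 1.39 on control arrays, again without overlap. Its log2 fold change of 0.45 ± 0.11 (SE) missed the threshold at a limma adjusted p of 0.0559, and its other 2 probes gave 0.60 ± 0.17 and 0.33 ± 0.15 (SE). All 3 Glul probes had every knockdown array above every control array.

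**Figure D3:**
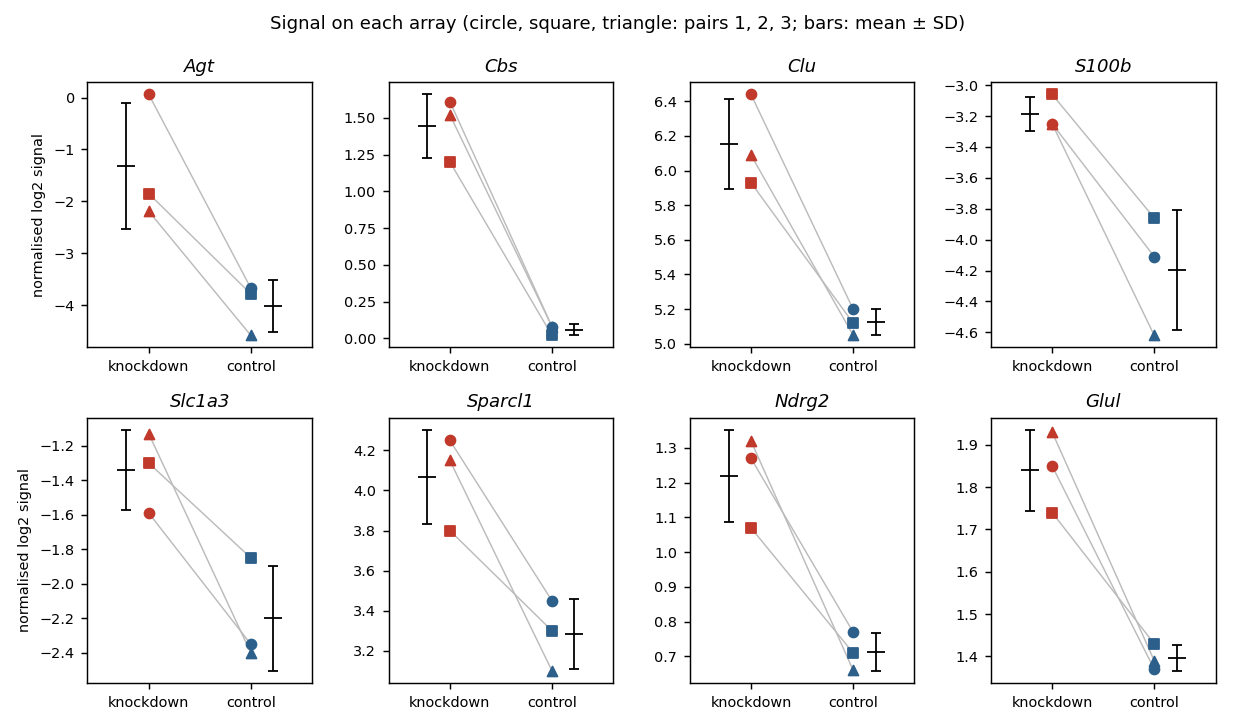
Normalised log2 signal of the 7 genes past the threshold and Glul on each array, knockdown left and control right, each panel on its own scale. Grey lines join the arrays of a pair, and black bars give the mean ± SD of 3 arrays; in every panel all knockdown arrays lie above all control arrays.

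Of the general markers Gfap and S100b, S100b rose and Gfap did not pass. S100b, a calcium-binding protein also made by oligodendrocyte lineage cells, stood at -3.25, -3.06 and -3.25 on knockdown arrays, against -4.11, -3.86 and -4.62 on control arrays. The groups did not overlap, and S100b was 2.02-fold higher (log2 fold change 1.01 ± 0.20, SE; adjusted p = 0.0284 in limma). With normexp, which adds an offset that shrinks the folds of dim probes, S100b was 1.29-fold higher and did not pass (adjusted p = 0.258 in limma).

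Gfap, the intermediate filament of astrocytes, was near the detection limit, and its 2 probes are assigned to different transcripts. The probe that could be tested stood at -7.51, -4.98 and -5.03 on knockdown arrays, against -4.23, -4.40 and -6.64 on control arrays, a log2 fold change of -0.75 ± 0.83 (SE; 95% interval -2.69 to 1.19; adjusted p = 0.639 in limma). The 2 arrays on which it was lowest were knockdown 1 and control 3. Without these 2 arrays together, a setting chosen after the data were seen, the value was -0.69 with a limma adjusted p of 0.0197 from 2 arrays a group. The other probe was above background on 2 knockdown arrays and no control array, with -4.78, -5.02 and -5.38 on knockdown arrays, against -6.62, -7.07 and -5.50 on control arrays. It passed the filter on too few arrays to be tested, and no direction is given for Gfap.

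Among ion handling genes and connexins 1 member each could be tested. Atp1b2, a subunit of the sodium pump that also serves astrocyte adhesion, had a log2 fold change of 0.75 ± 0.30 (SE; adjusted p = 0.166 in limma). Its pair differences were 1.69, 0.24 and 0.33, with pair 1 far above the others. Gja1, a connexin and the main gap junction protein of astrocytes and of neural precursors, had 1.65, 1.07 and 1.21 on knockdown arrays, against 1.07, 1.11 and 1.39 on control arrays (log2 fold change 0.12 ± 0.18, SE; 95% interval -0.30 to 0.53; adjusted p = 0.745 in limma). The groups overlapped, and the highest Gja1 level in each was on knockdown 1 and control 3.

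The other 2 Gja1 probes ran the opposite way on those arrays. One had -1.15, 0.31 and 0.23 on knockdown arrays, against 0.00, 0.25 and -0.70 on control arrays, and the other had -2.99, -1.88 and -2.02 on knockdown arrays, against -1.94, -1.75 and -2.91 on control arrays. Both were lowest on knockdown 1 in the knockdown group and on control 3 in the control group. Their fold changes were -0.05 ± 0.43 and -0.10 ± 0.39 (SE) with all 6 arrays, and 0.14 ± 0.14 and -0.11 ± 0.14 (SE) without these 2 arrays. What sets knockdown 1 and control 3 apart was not tested.

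**Figure D4:**
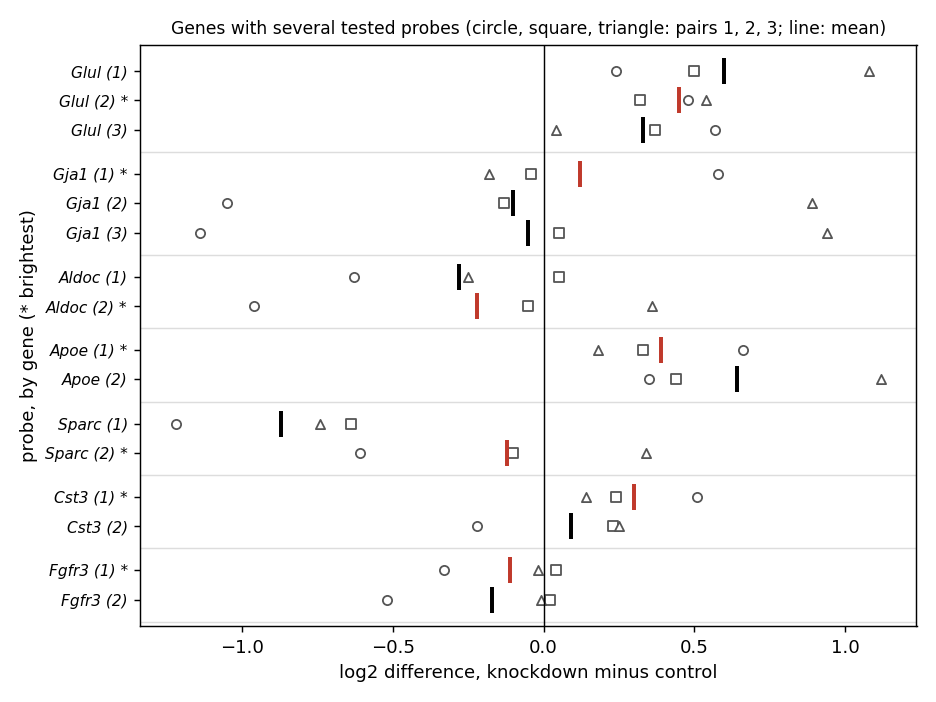
Log2 difference, knockdown minus control, for each tested probe of the 7 genes with several such probes. Open symbols are pairs 1, 2 and 3 (circle, square, triangle), lines are means, and red lines mark the brightest probe used for the gene. The 3 Glul and 2 Apoe probes have every pair above 0, the dimmer Sparc probe has every pair below 0, and the pairs of the 2 dimmer Gja1 probes spread to both sides.

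Of receptors and signalling genes, 1 of 3 tested rose and 0 fell. Ndrg2, a differentiation-linked gene of astrocytes that restrains growth in several tumours, stood at 1.27, 1.07 and 1.32 on knockdown arrays, against 0.77, 0.71 and 0.66 on control arrays. The groups did not overlap, and Ndrg2 was 1.42-fold higher (log2 fold change 0.51 ± 0.12, SE; adjusted p = 0.0478 in limma, and 0.0916 with pairs blocked). S1pr1, a sphingosine-1-phosphate receptor, had -0.35 ± 0.15 (SE; adjusted p = 0.209 in limma), with pair differences of 0.05, -0.62 and -0.48. Fgfr3, a receptor for the FGF family, of which the medium supplied bFGF, had -0.11 ± 0.13 (SE; 95% interval -0.40 to 0.19; adjusted p = 0.665 in limma).

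The calls rest on few arrays. With the pairs as a replicate block, 4 of the 21 genes rose, Agt, Cbs, Clu and S100b, and 0 fell, beside 2.78% and 1.16% of all genes (3.94% in either direction). In all 3 pairs 14 members were higher and 0 lower, beside 26.3% and 22.4% of all genes. The groups did not overlap for 12 members, all higher, beside 17.8% of all genes higher and 14.6% lower. An unadjusted limma p below 0.05 was reached by 13 members, all higher, beside 14.1% of all genes higher and 10.7% lower. Aldh1l1, which entered the test through the knockdown arrays, is among the members in each of these 3 counts, so they are descriptions only. With single arrays left out, 0 members passed without control replicate 1 (10 at an unadjusted limma p below 0.05) or without knockdown replicate 3 (13 likewise). In those fits 14 and 21 of the 14151 genes passed in all, and 2738 and 2927 had an unadjusted limma p below 0.05. Calls were thus lost across the array and not in the members alone. Without control replicate 2, Cbs alone passed, without control replicate 3 Cbs, Clu and S100b, without knockdown replicate 2 Agt, Cbs, Clu and Sparcl1, and without knockdown replicate 1 Agt, Cbs, Clu, S100b and Slc1a3. Across these 6 fits the log2 fold change ran from 1.99 to 3.11 for Agt (3.97-fold without knockdown replicate 1 to 8.64-fold without knockdown replicate 3), 1.30 to 1.51 for Cbs, 0.88 to 1.14 for Clu, 0.80 to 1.18 for S100b, 0.76 to 1.04 for Slc1a3, 0.69 to 0.92 for Sparcl1 and 0.46 to 0.58 for Ndrg2.

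RefSeq promoter windows, 250 bases before to 50 after a start site on GRCm38.p6, were found for 24 of the 30 genes, in 31 windows. The palindrome bound by STAT factors, TTCNNNGAA, which reads the same on both strands, was in 6 of the 31 windows and in 8.30% of all 32851 windows. It occurred in the windows of Gfap, Slc1a3, Aldoc, Acsbg1, Agt and Ntsr2, of which Agt and Slc1a3 rose, Gfap, Aldoc and Acsbg1 did not pass and Ntsr2 was not detected. The windows of Agt and Slc1a3 are shown because both genes rose, and that of Gfap because it is the best known STAT3 target of the list, with the match in capitals.
Agt: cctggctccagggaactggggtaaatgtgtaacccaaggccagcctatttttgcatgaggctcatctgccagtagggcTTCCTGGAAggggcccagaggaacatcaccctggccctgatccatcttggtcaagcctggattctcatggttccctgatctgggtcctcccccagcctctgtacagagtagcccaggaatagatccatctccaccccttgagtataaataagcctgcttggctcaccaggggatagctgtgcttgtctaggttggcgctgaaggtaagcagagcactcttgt
Slc1a3: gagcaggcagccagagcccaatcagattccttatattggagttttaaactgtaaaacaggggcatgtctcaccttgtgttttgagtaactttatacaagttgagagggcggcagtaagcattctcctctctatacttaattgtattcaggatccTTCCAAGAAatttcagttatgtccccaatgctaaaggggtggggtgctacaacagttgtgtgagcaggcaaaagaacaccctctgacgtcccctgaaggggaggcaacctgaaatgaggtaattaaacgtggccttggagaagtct
Gfap: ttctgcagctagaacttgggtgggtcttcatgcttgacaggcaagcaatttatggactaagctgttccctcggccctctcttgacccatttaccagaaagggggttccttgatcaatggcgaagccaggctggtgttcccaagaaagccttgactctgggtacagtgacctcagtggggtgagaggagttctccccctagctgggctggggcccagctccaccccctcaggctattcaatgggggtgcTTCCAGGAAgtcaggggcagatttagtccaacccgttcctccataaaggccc
The Agt window is chr8:124569657-124569956, the Slc1a3 window chr15:8710758-8711057 and the Gfap window chr11:102897151-102897450, all on the minus strand. The match begins 172 bases before the start site in Agt, 96 in Slc1a3 and 2 in Gfap. Whether the Gfap match is a site that STAT3 uses was not tested, and sites further upstream lie outside the window. The AP-1 motif TGANTCA, searched on both strands, was in 1 member window, that of Gja1, and in 7.81% of all windows. Of the other 2 motifs searched, that of NFI was in 0 member windows and in only 12 of all 32851 windows (0.0365%). At so low a share, its absence from 31 windows says nothing about NFI sites in the members. The interferon response element was in 2 member windows, those of Glul and Acsbg1, and in 3.44% of all windows. A match is a run of letters and not a measured binding site.

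Regulators of astrocyte fate were set beside these genes. Of 37 tested of 46, 1 rose and 1 fell, beside 4.57% and 2.84% of all genes. The median log2 fold change was 0.01. The rise was Id2, an inhibitor of neurogenic transcription factors and a BMP target, at 1.15 ± 0.26 (SE; adjusted p = 0.0439 in limma, and 0.0734 with pairs blocked). The fall was Zbtb20, a transcription factor that promotes astrocyte formation in mouse cortex, at -0.67 ± 0.15 (SE; adjusted p = 0.0422 in limma, and 0.0804 with pairs blocked). Stat3, named for its role, had 0.13 ± 0.15 (SE; adjusted p = 0.634 in limma), Nfia -0.13 ± 0.17 (SE; adjusted p = 0.690 in limma), and Sox9 -0.55 ± 0.46 (SE; adjusted p = 0.513 in limma). Sox9 stood at -0.16, 1.51 and 1.12 on knockdown arrays, against 1.44, 1.93 and 0.74 on control arrays, and was lowest in each group on knockdown 1 and control 3.

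A second list of 48 other astrocyte genes had 30 tested members, with a median of 0.05. Of the 30, 2 rose and 0 fell, beside 4.57% and 2.84% of all genes. With pairs blocked, 2 were called higher and 2 lower, beside 2.78% and 1.16% of all genes. Id3, a BMP-induced inhibitor of differentiation factors, stood at 3.62, 3.02 and 2.82 on knockdown arrays, against 1.94, 1.75 and 1.61 on control arrays (log2 fold change 1.38 ± 0.22, SE; adjusted p = 0.0162 in limma). Slc25a18, a mitochondrial glutamate carrier, had a log2 fold change of 1.23 ± 0.29 (SE; adjusted p = 0.0450 in limma). Both genes had every knockdown array above every control array. Of this list 16 genes were above background on no array, among them Kcnj10, Hepacam, Slc6a11 and Gpr37l1, all genes of mature astrocytes. The 2 lists were not tested against each other.

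Markers of other cell types were measured beside the astrocyte genes. Each count of calls below stands beside 4.57% higher and 2.84% lower over all genes, and no list was tested as a set. A summed level follows the brightest probes of a list, so the median log2 fold change of the list is given where the sums differ. The summed linear level of tested markers, relative to the 75th percentile of an array, was 108 to 158 on knockdown arrays, against 159 to 212 on control arrays for neuron markers, where 1 of 10 tested of 18 rose and 0 fell and Dcx, Rbfox3 and Stmn2 were detected on no array. For oligodendrocyte markers it was 13.5 to 19.7 on knockdown arrays, against 13.9 to 18.7 on control arrays, with 2 of 5 tested of 12 higher, 0 lower and Cldn11, Myrf and Opalin undetected. Progenitor markers of that lineage summed to 3.62 to 4.14 in knockdown cells, against 3.78 to 4.40 in control cells, with 0 of 4 tested of 10 higher, 1 lower and Sox10 and Olig2 undetected. Sums of neuron markers were lower in knockdown cells without overlap, but the median log2 fold change of that list was 0.07 and none of its tested genes fell. The sums of both oligodendrocyte lists overlapped. The neuron call, Stmn3, was above background on no control array. It entered the test through the knockdown arrays, so that call is a description only.

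Neural stem cell markers summed to 49.4 to 54.0 on knockdown arrays, against 51.5 to 63.3 on control arrays, with 1 of 9 tested of 14 higher and 0 lower. Hes5, Olig2, Pax6 and Sox1 of that list were undetected. Microglia and macrophage markers summed to 13.2 to 15.7 on knockdown arrays, against 12.2 to 18.5 on control arrays, with 1 of 5 tested of 13 higher, 0 lower, and Aif1, Cx3cr1, P2ry12 and Ptprc undetected. Endothelial markers summed to 15.5 to 31.4 on knockdown arrays, against 11 to 13.7 on control arrays, with 1 of 4 tested of 10 higher, 1 lower, and Cldn5, Kdr and Vwf undetected. Stem cell and microglia sums overlapped between groups, and endothelial sums were higher in knockdown cells without overlap, with a list median of 0.05. The endothelial gene that rose was Ly6c1, at 4.81, 3.45 and 3.73 on knockdown arrays, against 2.34, 1.45 and 2.12 on control arrays, and the one that fell was Flt1, a VEGF receptor, to 49.9% of control (adjusted p = 0.0187 in limma, and 0.0527 with pairs blocked). Pericyte and fibroblast markers summed to 16.6 to 24.8 in knockdown cells, against 16.4 to 25.6 in control cells, with 1 of 5 tested of 10 higher and 0 lower. Abcc9, Kcnj8, Lum, Rgs5 and Vtn were undetected. Ependymal markers summed to 1.23 to 1.47 in knockdown cells, against 1.14 to 1.31 in control cells, with 1 of 4 tested of 7 higher, 0 lower and Foxj1 undetected. The ependymal call, Rarres2, was above background on 1 control array and was not called with pairs blocked (adjusted p = 0.0831 in limma). The part of these markers in the change of the astrocyte genes was not tested.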

How the data were processed

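The authors' scanner files hold spot intensity from 1-colour (Cy3) arrays, background-subtracted by Agilent Feature Extraction 11.0.1.1 per the file headers. The authors' deposited value table holds log2 values equal, within 0.01, to log2 processed signal shifted by a constant for each array, so genes were not centred. Its column medians lay from -4.46 to -4.21.

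Outlier spots were dropped, repeat spots averaged on the log2 scale and the 75th percentile of each array subtracted. Of 56605 non-control probes, 12 had no usable spot on at least 1 array and were left out. A RefSeq table of GRCm38.p6 named 58.3% of probes by transcript. Probes well above background on at least 3 arrays were kept, and the brightest probe stood for a gene. Knockdown was compared with control in limma 3.58.1 (R 4.3.3, lmFit and eBayes), with Benjamini-Hochberg adjustment over 14151 genes and no block. Dates in the titles pair the arrays. Deviations of paired arrays from their group means correlated at -0.02, 0.55 and -0.20, and the paired fit (a replicate block) was an alternative. All 30 members are described. Other lists are named by up to 4 called genes of largest change, and Stat3, Nfia and Sox9 were added after their values were seen. The members and lists were chosen with earlier results of these data known. The normexp alternative used the median spot signal, in place of the planned mean, with an offset of 50. The number of arrays limits the precision.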

Additional observations from a re-analysis of the deposited data

How the results depend on the processing

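The 7 genes past the threshold kept their direction in all alternatives run, but not their call. Of 18 alternatives, Cbs passed in 15, Clu in 13, Agt in 11, S100b in 9, Slc1a3 and Sparcl1 in 7 each and Ndrg2 in 6. With the replicate block 558 genes of all tested and 4 members passed. Without a filter on dim probes it was 357 genes, 2 members (Cbs and Clu), a members' median of 0.30 over all 30 genes and 10 genes of the other lists, for which 18 had passed. A fit on probes in place of genes called 2 members. Without pair 1, 343 genes, 3 members and 11 genes of the other lists passed. Without pair 2 it was 81, 1 and 3, and without pair 3 it was 0, 0 and 0 in limma, where 2796, 12 and 44 had an unadjusted p below 0.05. With single arrays left out, 14 to 840 genes, 0 to 5 members and 0 to 16 genes of the other lists passed, and the members' median ran from 0.43 to 0.54. Without knockdown 1 and control 3 together, chosen after the data were seen, 1521 genes and 7 members passed, 6 higher (Aldh1l1 in, Sparcl1 at 0.0524 and Ndrg2 at 0.0754 out) and Gfap lower. Near 0, signs turned: with the mean of its probes Gja1 was -0.01. Without pair 1 Gfap was 0.52, Gja1 -0.11, Aldoc 0.15, Sparc 0.12 and Fgfr3 0.01, and with single arrays left out Gfap ran from -1.52 to 0.09, Gja1 from -0.05 to 0.24 and Sparc from -0.29 to 0.06. Glul passed with quantile normalization, with the mean of its probes and with the percentile over detected probes. Slc1a3 did not pass with normexp (limma adjusted p = 0.0586). The cause of these changes was not tested. Detection limits what can be said of Gfap, Aldh1l1, Aqp4 and Gpc5.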

Other observations

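Genes known from reactive astrocytes, the state that follows injury or inflammation, held 25 tested members of 35, with a median log2 fold change of -0.03. Of the 25, 3 rose and 1 fell, beside 4.57% of all genes higher and 2.84% lower. Gbp2, an interferon-induced GTPase, rose 4.01-fold, or 2.01 ± 0.27 (SE) on the log2 scale (adjusted p = 0.0134 in limma). Cxcl10, an interferon-induced chemokine, rose by 1.14 ± 0.22 (SE) on the log2 scale (limma adjusted p = 0.0270), and Serpina3n, a secreted protease inhibitor, rose 2.15-fold (limma adjusted p = 0.0194). The fall was Cd109, a surface protein that binds TGF-beta, to 66.0% of control (adjusted p = 0.0410 in limma, and 0.0645 with pairs blocked). With the block 5 members of this list passed as higher and 1 as lower, beside 2.78% and 1.16% of all genes.

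Among the markers of other cell types, Stmn3, a neuronal microtubule regulator, was above background on 3 knockdown arrays and no control array, and was at least 2.55-fold higher. Mbp, the myelin basic protein, rose 2.02-fold and Cd24a, a surface marker of neural progenitors, 2.52-fold. The other oligodendrocyte call, Cnp, rose 1.4-fold (adjusted p = 0.0398 in limma, and 0.0845 with pairs blocked). The microglia and macrophage call, Tmem119, rose 2.25-fold, and the pericyte and fibroblast call, Col1a2, rose 2.4-fold. Of the endothelial markers, Ly6c1, a surface protein, rose 4.08-fold and Flt1 fell to 49.9% of control. Pdgfra, the growth factor receptor of oligodendrocyte progenitors, fell to 53.4% of control (limma adjusted p = 0.0135).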
